A study of Homo sapiens with 10 samples.

Results

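N6-methyladenosine (m6A) windows that lie far along long transcripts were taken from the 2 m6A-seq peak lists of HCT116 cells as every window starting at base 4000 or beyond, counted along the transcript on which the authors called it. Replicate 1 had 2505 such far windows among 24494 windows, or 10.2% of its list, on 1089 of 8695 genes. Replicate 2 had 2519 among 24855 windows, or 10.1% of its list, on 1104 of 8946 genes. A gene with at least 1 far window in either list is called a host here, and there were 1299 hosts, 894 of them in both lists. Host names from replicate 1 were found again in replicate 2 for 82.1%, and those from replicate 2 in replicate 1 for 81.0%. One host name had been damaged by a spreadsheet, so the gene-level work used 1298 hosts, of which 1296 matched a gene of the RefSeq GRCh38.p14 annotation.

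The series asked which mRNAs have their translation regulated by YTHDF1 in HCT116, a human colorectal cancer cell line. Its 10 libraries were 2 ribosome footprint and 2 mRNA libraries from cells with a YTHDF1 knockdown hairpin, 1 footprint and 1 mRNA library from cells with a control hairpin against GFP, 1 RNA immunoprecipitation (RIP) with a YTHDF1 antibody and 1 whole cell lysate mRNA input to it, and 2 m6A-seq replicates with no knockdown named in their labels. The labels give every library a cycloheximide treatment of 100 ug/ml for 3 min. Titles name the knockdown hairpin shY1-1 or shY1-2 (knockdown 1 and 2 below) but the genotype entries read shY1 throughout, so different hairpins cannot be told apart from repeats of 1.

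m6A is the commonest internal modification of mRNA. A methyltransferase complex built around METTL3 and METTL14 places it on the adenosine of a short consensus, and sites gather in long internal exons, around stop codons and in 3′ untranslated regions. YTHDF1 is one of the cytoplasmic proteins whose YTH domain binds the modified base, and it has been linked to translation. m6A-seq enriches RNA fragments with an antibody against m6A, and a window is a stretch where the immunoprecipitate (IP) exceeds the unenriched input. A position far along a transcript needs a long transcript. Hosts include genes of giant cytoskeletal, chromatin and ubiquitin proteins, and also genes with a short RefSeq span such as PHLDA1 and PROB1.

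Both lists carried the same input. In 5972 windows with equal start and stop in the lists, the input signal was equal in all 5972 within a relative tolerance of 1e-06, and the IP signal was equal in 3. Of these, 538 were far windows, with equal input in 538 and equal IP in 0. The ratio of IP over input that the authors list for each window (POI, at least 3 in every window with an input above 0) therefore shares its denominator between replicates, and agreement of POI between them is not agreement of independent inputs. All window values are the authors' own, and the depth behind them is unknown.

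Each window also carries a 5-letter word and the position of an m6A base that the authors assigned to it. The words below are shown because they were assigned to the strongest far windows with an input signal of at least 50 in both replicates. This floor was chosen after the values were seen. Capitals mark the central adenosine, the base that is methylated in the known consensus, and the number in each name is the position listed by the authors along the transcript.
DNAL1 8014: agAcc
PLCG2 8108: ggAcc
CAMSAP2 4418: aaAct
MIA3 5536: ggAca
MOB1A 4256: aaAcc
MED13L 6898: gaAcc
PIKFYVE 6429: ggAca
ARHGAP19 5048: agAca
CLIP1 4357: ggAcc
These 9 assigned bases were listed at the same position in both replicates, which does not show which base is methylated. The DNAL1 base, for example, lay away from the summits of its window, at 8070 in replicate 1 and 8077 in replicate 2. The window on ZNF24, also among the 10 strongest, was assigned position 6040 in replicate 1 and position 6011 in replicate 2.
ZNF24 6040: gaAct
ZNF24 6011: aaAct
The sites assigned farthest along are shown because they belong to the farthest matched windows, with one per gene and the base the same in both lists. Their positions run along the authors' transcripts and were not checked against coding length.
MACF1 22892: agAcc
BRF1 17599: agAca
MDN1 16906: gaAca
KMT2D 16607: gaAct
RNF213 16193: aaAcc
RBM28 15361: ggAca
The bases given for BRF1 and RBM28 lie past the end of their windows in both lists. DST and AHNAK2 also belong among the 8 farthest genes, and their windows were assigned different bases in the 2 replicates. Assigned sites in hosts of the Wnt pathway, which the title of the series names, are shown next.
APC 5851: gaAct
APC 8461: aaAca
BCL9L 5002: gaAcc
BCL9 4034: ggAcc
MED13 4483: ggAca
RNF43 4093: aaAcc
The BCL9 base lies before the start of its window in replicate 2.

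Every word in both lists was 1 of 12, all with a purine, a purine, the adenosine, a cytosine and then a base other than guanine. GGACA was the commonest in far windows, at 11.4% of them in replicate 1 and 11.3% in replicate 2. Words beginning ggac made up 28.4% of far windows and 30.9% of nearer windows in replicate 1, and 27.1% and 29.8% in replicate 2. Words beginning aaac made up 23.1% of far and 20.2% of nearer windows in replicate 1, and 23.4% and 21.6% in replicate 2. The far windows thus held slightly fewer ggac and slightly more aaac words in both lists. The assigned base lay inside its window in 80.4% of far and 81.0% of nearer windows in replicate 1, and in 80.7% and 80.9% in replicate 2. The word alone therefore is not always within the stretch that was called.

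Replicate support was counted for each far window as sharing at least 1 base with a window of the same gene in the other list. It was found for 1684 far windows of replicate 1 (67.2%) and 1668 of replicate 2 (66.2%). Nearer windows were supported in 75.3% of replicate 1 and 73.3% of replicate 2. Restricted to the same host genes, nearer windows were supported in 74.1% and 72.0%, so far windows were matched less often than windows nearer the start of the same transcripts. Windows of a gene share a transcript, so no test was run on these shares.

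**Figure D1:**
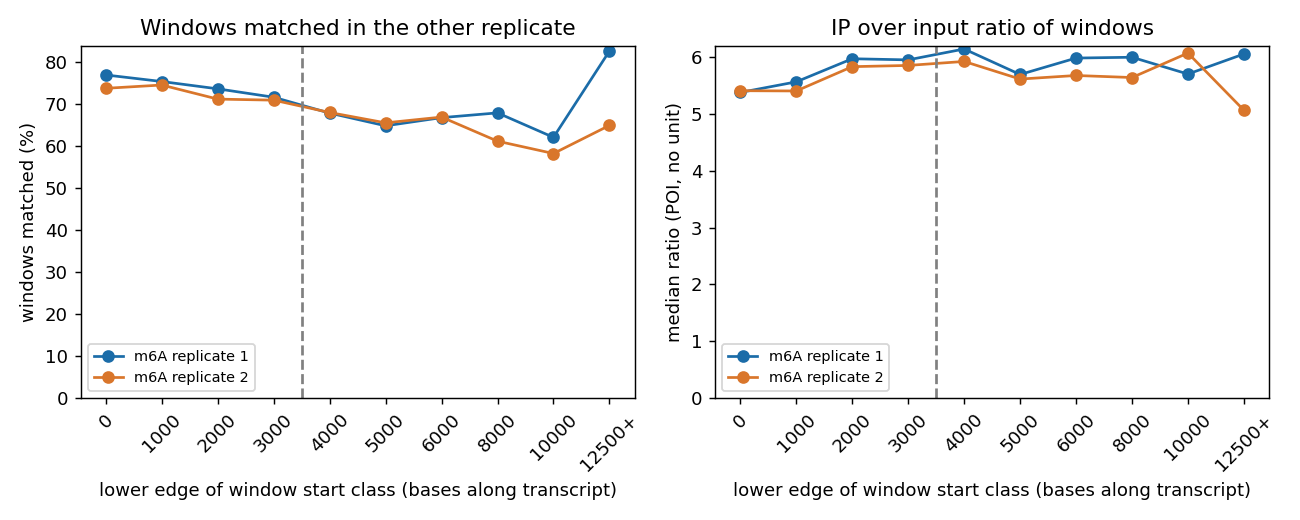
Share of windows matched in the other replicate (left, %) and median POI (right, no unit) by class of window start along the transcript in bases, one line per m6A replicate; the dashed line marks base 4000. The matched share lies at 77.0% and 73.8% for starts below base 1000 and at 62.1% and 58.3% for starts of 10000 to below 12500, while POI medians lie between 5.07 and 6.15 in all classes.

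By class of start, support was 67.9% in replicate 1 and 68.0% in replicate 2 from base 4000, and 64.9% and 65.6% from base 5000. It was 66.8% and 66.9% from base 6000, 67.9% and 61.2% from base 8000, and 62.1% and 58.3% from base 10000. From base 12500 on, where replicate 1 had 75 windows and replicate 2 had 97, the shares were 82.7% and 64.9%. A match is counted from both sides, so the lines of the 2 replicates hold largely the same pairs. Their closeness up to base 8000 is therefore not a separate sign of agreement. Beyond it few genes supply the windows. From base 12500, 62 windows of replicate 1 and 63 of replicate 2 were matched, so the shares part there through the number of windows listed. At the threshold itself, windows starting at 4000 to 4075 numbered 146 and 142 with a median POI of 6.47 and 6.32 and support of 64.4% and 67.6%. Those starting at 3900 to 3975 numbered 140 and 163 with a median POI of 5.98 and 6.16 and support of 72.1% and 65.6%.

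Matched far windows agreed in detail about as often as matched nearer ones. Among supported far windows, 77.6% in replicate 1 and 77.8% in replicate 2 were assigned the same m6A base as their partner, and 31.9% and 32.3% had identical start and stop. Among supported nearer windows these shares were 76.9% and 77.5% for the base, and 32.8% and 33.2% for the limits. In the 538 identical far windows, the IP signal of replicate 1 over that of replicate 2 had a median of 1.01 and quartiles of 0.862 and 1.17, and 88.7% lay within 1.5-fold. As a description, the Spearman correlation of POI over 1645 matched far pairs with an input above 0 was 0.81 and that of IP signal over 1684 pairs was 0.73. These pairs share the input and the transcript, and a window wider in 1 list collects more signal.

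**Figure D2:**
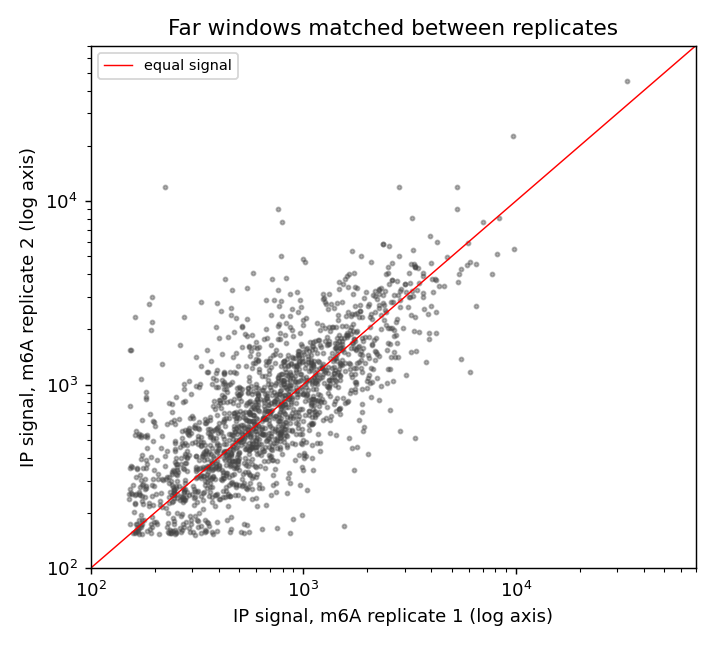
IP signal of each matched far window in m6A replicate 1 (x axis) against its partner in replicate 2 (y axis), both on log axes, with the line of equal signal in red. The 1684 pairs spread along the line, with a Spearman correlation of 0.73, and the DNAL1 window stands at the upper right with 33234 and 45106.

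Unmatched far windows were weaker. In replicate 1 the 821 unmatched far windows had a median POI of 5.16, IP signal of 423 and input signal of 62.2, against 6.30, 651 and 97.7 in the 1684 matched ones. In replicate 2 the 851 unmatched ones had 4.81, 477 and 77.8, against 6.18, 676 and 101. Their input signal was 0 in 7.43% and 5.41%, against 2.14% and 2.22% of matched far windows.

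Enrichment over input was similar far along and nearer the start. Median POI was 6.0 in far windows and 5.60 in nearer windows of replicate 1, and 5.73 and 5.52 in replicate 2. Nearer windows of the same hosts had 5.94 and 5.81, above the far ones in replicate 2 and below them in replicate 1. Gene by gene, the median POI was higher far along than nearer in 505 of 939 hosts with both kinds in replicate 1 (53.8%) and in 472 of 963 in replicate 2 (49.0%). The direction of this difference therefore changed between the replicates.

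Signals themselves were lower far along. The median IP signal was 556 in far and 664 in nearer windows of replicate 1, and 576 and 711 in replicate 2. The median input signal was 85.2 and 114 in replicate 1, and 94.5 and 122 in replicate 2. Within hosts, the far median of IP signal exceeded the nearer one in 41.1% and 39.9% of genes, and that of input in 40.9% and 40.5%. An input of 0, which leaves no POI, occurred in 97 far windows of replicate 1 (3.87%) and 83 of replicate 2 (3.29%), against 1.65% and 1.52% of nearer windows. Lower input moves with lower support in these windows, and its part in the support shares was not tested.

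The highest ratios rested on near-empty inputs. Among supported far windows ranked by the lower of both POI values, BAZ1B, a bromodomain chromatin remodelling subunit, came first with 27725 in replicate 1 and 22172 in replicate 2. Its window had IP signals of 365 and 292 over an input of 0.0132 in both. PITPNM2, a phosphatidylinositol transfer protein, followed with 181 and 182 over an input of 4.50. Next was DNAL1, a light chain of axonemal dynein at chr14:73644986-73703732 (GRCh38.p14), whose window at 7975 to 8150 had a POI of 147 and 193. The other 7 genes of the 10 highest, PLCG1, KIF13A, RAPGEF2, SPEN, SPTAN1, QSOX1 and CDC42BPG, had inputs of 1.19 to 24.0.

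DNAL1 differed from the others in that list by its signal. Its IP signal was 33234 in replicate 1 and 45106 in replicate 2, over inputs of 226 and 234, and it was the sole m6A window of its gene in both lists. With the input floor of 50 in both lists, PLCG2, a phospholipase C of immune receptor signalling at chr16:81739041-81962685, came second. Its window at 8100 to 8175 had IP signals of 6506 and 4564 over an input of 97.0 in both, a POI of 67.1 and 47.1. ZNF24 followed with a POI of 33.0 and 31.2, CAMSAP2, which binds microtubule minus ends, with 31.0 and 39.4, and MIA3, which loads large cargo at endoplasmic reticulum exit sites, with 28.6 and 31.9. The remaining 5, MOB1A, MED13L, PIKFYVE, ARHGAP19 and CLIP1, lay between 20.0 and 36.3 in both replicates.

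Far windows were slightly more widely spaced by median than nearer ones and of similar width. Their median width was 100 bases in both lists, with quartiles of 75 and 150, against 100 and 125 bases for nearer windows. The widest were 1100 bases on ZNF26 in replicate 1 and 3350 bases on HSPA4L in replicate 2, both unmatched. Start to start, neighbouring far windows of a gene were a median of 475 bases apart in replicate 1 and 525 in replicate 2. Nearer windows were 425 and 450 apart. Nearer pairs came from all m6A genes and not hosts alone, and far spacing differed between the lists by about as much. The gap between one window's end and the next one's start was at least 1000 bases in 22.0% and 21.2% of far pairs, against 12.4% and 12.7% of nearer pairs. A nearer pair cannot be farther apart than its 4000-base stretch, which limits its long gaps, while gaps of up to 100 bases made up 24.0% and 21.8% of far pairs and 27.2% and 25.2% of nearer pairs.

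Most hosts carried few far windows. In replicate 1, 523 hosts had 1 far window, 246 had 2, 201 had 3 or 4 and 119 had 5 or more. In replicate 2 the numbers were 543, 251, 204 and 106. The 50 genes with the most held 17.9% of far windows in replicate 1 and 19.4% in replicate 2. Hosts with no nearer window at all numbered 115 (10.6%) and 117 (10.6%). Windows ended beyond the whole RefSeq span of the gene in 2 hosts, PHLDA1 (4 windows in replicate 1 and 1 in replicate 2) and PROB1 (1 in replicate 2), so positions there ran along a transcript that differs from that annotation.

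MACF1, a giant linker of microtubules and actin that also takes part in Wnt signalling, held the most. It had 23 far windows in replicate 1, 19 of them matched, and 24 in replicate 2, 21 of them matched, along chr1:39084167-39487138. They ran from base 4075 to base 22825, with a median POI of 7.18 and 6.05. The map of windows shows 1 or 2 windows near the threshold and then a run that begins beyond base 11000. The last matched window, at 22825 to 22975 in both lists, had IP signals of 3198 and 2404 over an input of 191, a POI of 16.7 and 12.6. Its strongest matched far window, at 13475 to 13575, had a POI of 23.6 and 27.4 over an input of 24.9.

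**Figure D3:**
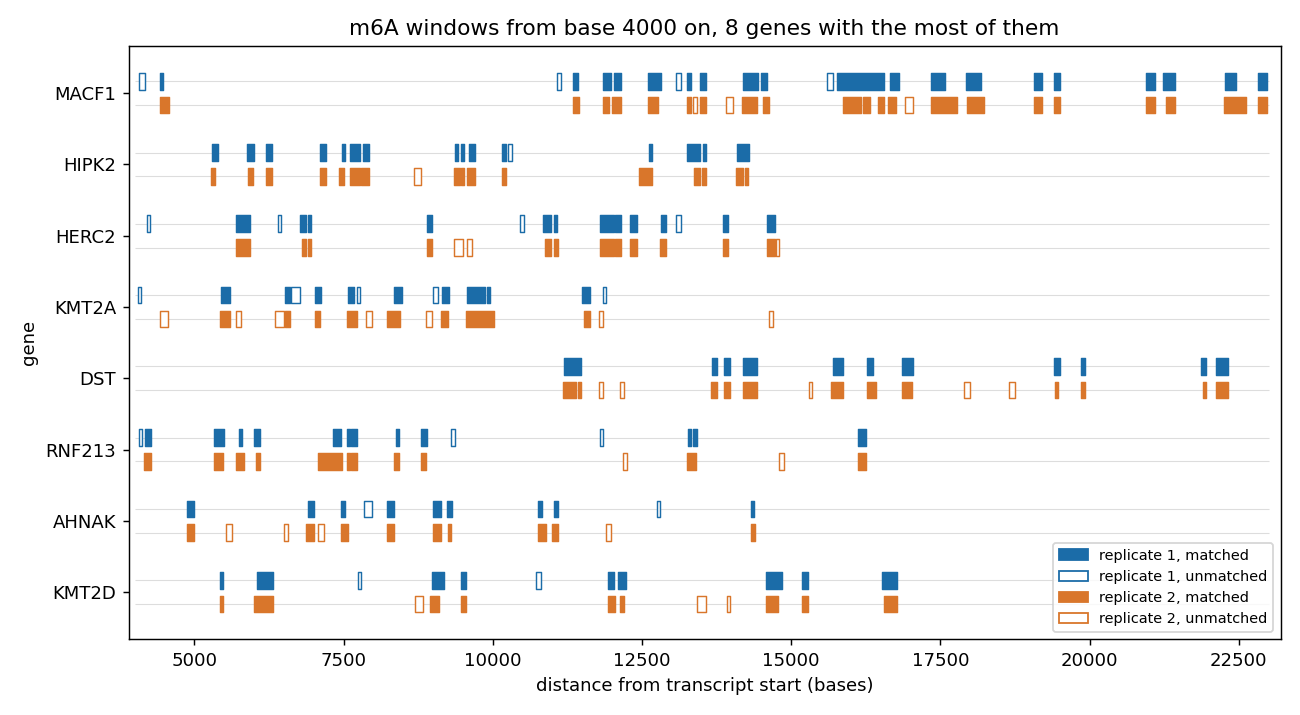
Far windows along the transcript (x axis, bases from its start) of the 8 genes with the most of them, replicate 1 in blue above replicate 2 in orange; filled boxes were matched in the other replicate and open boxes were not. MACF1 holds 23 and 24 windows, and DST has none between bases 4000 and 11000.

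The next genes by number were HIPK2, HERC2, KMT2A, DST, RNF213, AHNAK and KMT2D. HIPK2, a nuclear kinase that phosphorylates p53, had 16 and 17 far windows, of which 15 and 16 were matched. HERC2, a ubiquitin ligase of the DNA damage response, had 16 and 15, with 12 matched in each; it has pseudogene copies, and how shared reads were assigned is not stated, so its values are uncertain. KMT2A, a histone H3 lysine methyltransferase, had 14 and 15 with 9 and 8 matched, the lowest matched share of these 8 genes. DST, a relative of MACF1, had 11 and 17, none starting before base 11175. RNF213 had 15 and 13, AHNAK 11 and 13, and KMT2D, also a histone methyltransferase, 11 and 12.

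Enrichment of these genes was described by their medians and by their highest windows. Median POI of far windows lay between 4.26 in AHNAK and 7.67 in HIPK2 in replicate 1, and between 4.49 in AHNAK and 7.97 in DST in replicate 2. Within a gene the highest window reached 957 in RNF213 and 449 in KMT2D in replicate 1, against 20.0 and 33.7 in replicate 2. That KMT2D window of replicate 1 was unmatched, and the RNF213 one was matched by a window with a POI of 12.7. A median of many windows and a single highest window are unlike measures, so their spreads cannot be compared. The farthest matched windows after MACF1 started at 22125 in DST, 17500 in BRF1, a subunit of the RNA polymerase III initiation factor, and 16850 in MDN1, a ribosome assembly ATPase. AHNAK2 followed at 16675, KMT2D at 16525, RNF213 at 16125 and RBM28, a nucleolar RNA-binding protein, at 15200.

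Hosts were then described by role, with 8 gene lists. Of all 9549 genes with any m6A window, 1298 were hosts (13.6%). Hosts made up 28 of the 32 cytoskeletal linker genes with a window, 52 of 58 chromatin regulators, 28 of 32 trafficking and endosome genes and 23 of 33 ubiquitin ligases and proteases. They made up 19 of 25 DNA damage and replication genes, 28 of 43 RNA decay and translation genes, 23 of 38 genes of mTOR, PI3K, MAPK and other signalling, and 13 of 51 Wnt pathway genes. The lists were written with large genes in mind, so their shares above 13.6% are a property of that choice.

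Chromatin regulators, the list with the most hosts, held 206 far windows in replicate 1 and 197 in replicate 2, of which 150 and 145 were matched. After KMT2D and KMT2A, the most matched windows were in ASH1L, a histone methyltransferase (7 of 8 in replicate 1), and NCOA6, a nuclear receptor coactivator (7 of 8). Cytoskeletal linkers held 121 and 148, of which 101 and 110 were matched, with MYO10, an unconventional myosin of filopodia, matched in 8 of 8 in replicate 1. Among ubiquitin genes MYCBP2 was matched in 8 of 12 in replicate 1 and 8 of 9 in replicate 2. The DNA damage genes included SMG1, a kinase of nonsense-mediated decay with many partial copies in the genome. SMG1 was matched in 7 of 10 in replicate 1 and 8 of 13 in replicate 2. PRKDC, the DNA-dependent protein kinase, was matched in 6 of 7 in replicate 1 and 6 of 10 in replicate 2.

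All 13 Wnt pathway hosts had far windows in both lists with at least 1 match. They were MACF1, CELSR1, CELSR2 and CELSR3 (planar polarity cadherins), MED12 and MED13 (Mediator kinase module), NFAT5, BCL9 and BCL9L (beta-catenin coactivators), APC and TNKS (destruction complex scaffold and the tankyrase that destabilises Axin), LRP6 (Wnt co-receptor) and RNF43 (the ligase that removes Frizzled). Scaffold and coactivator windows agreed well: APC at 5800 had a POI of 27.0 in replicate 1 and 25.6 in replicate 2, and BCL9L at 4950 had 9.97 and 10.4. LRP6, at chr12:12116025-12267044, had windows at 4400 and 4525 in replicate 1 with a POI of 4.45 and 13.5, and both fell under a single window at 4375 to 4900 in replicate 2 with a POI of 9.08. RNF43 had 14.3 and 16.0 at base 4050 and 4025, over inputs of 11.6 and 21.7, and TNKS had 17.9 and 7.59. The TNKS ratio differed between replicates by more than those of APC, BCL9L and RNF43.

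YTHDF1 association was read from a RIP list of 3930 readable gene names, which holds only genes with a RIP over input ratio of at least 1.5 and an input of at least 1 FPKM. It comes from 1 RIP and 1 input library, so no difference has a replicate check and none was tested. Of the hosts, 923 of 1298 were listed (71.1%, 95% Wilson interval 68.6% to 73.5%, over genes, which are not replicates). Of the other genes with m6A windows, 2735 of 8251 were listed (33.1%, interval 32.1% to 34.2%). Listed hosts had a median ratio of 3.06, with quartiles of 2.26 and 4.15, and the other listed m6A genes 2.14, with quartiles of 1.78 and 2.73. Median input was 3.58 FPKM in listed hosts and 5.88 FPKM in the other listed m6A genes. Hosts were 23.5% of the list and 137 of the 211 listed genes with a ratio of 5 or more (64.9%).

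**Figure D4:**
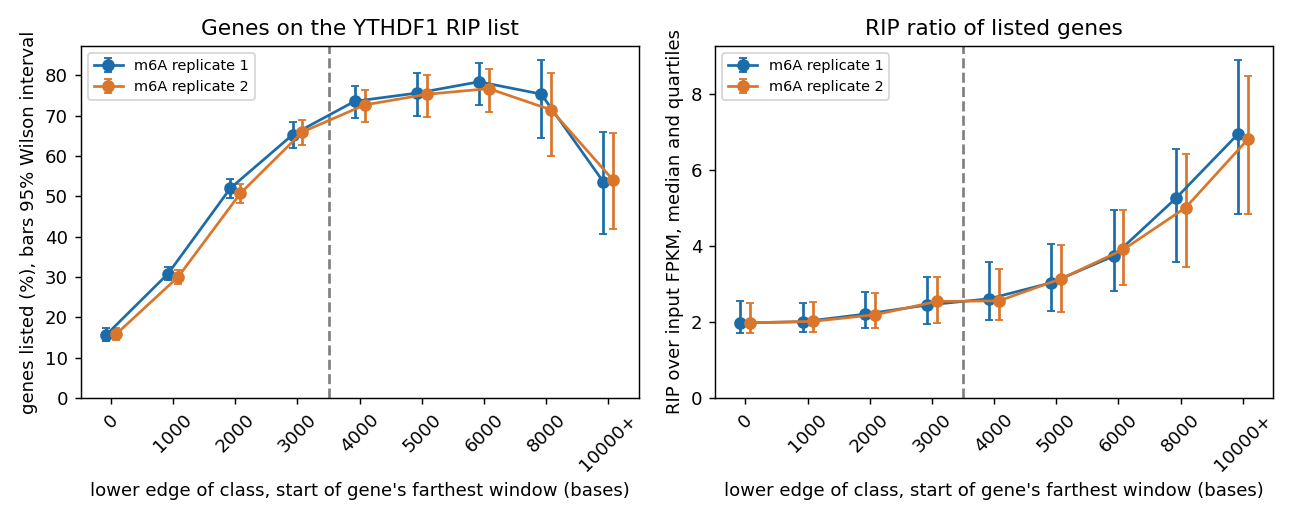
Share of genes on the RIP list (left, %, bars are 95% Wilson intervals) and ratio of RIP over input FPKM of listed genes (right, median with quartiles) by class of the start of a gene's farthest m6A window in bases, for each m6A replicate; the dashed line marks base 4000. In replicate 1 the share climbs with distance to 78.4% and is 53.6% in the last class, while the median ratio climbs to 6.94.

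The ratio increased with the position of the farthest window. In replicate 1 genes whose farthest window started before base 1000 were listed in 15.6% with a median ratio of 1.97, and those at 3000 to below 4000 in 65.2% with 2.44. Hosts at 4000 to below 5000 were listed in 73.6% with 2.61, at 5000 in 75.6% with 3.03, at 6000 to below 8000 in 78.4% with 3.73, at 8000 in 75.3% with 5.25, and at 10000 and beyond in 53.6% of 56 genes with 6.94. Replicate 2 gave 72.7%, 75.3%, 76.7%, 71.4% and 54.0%, with 2.56, 3.14, 3.91, 5.01 and 6.80. Both measures changed smoothly across base 4000, and the median input of listed genes was 2.66 FPKM at 10000 and beyond in replicate 1, against 6.12 FPKM before base 1000. Transcript length and expression move with these classes, and their part in the ratio was not tested.

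More windows per gene went with listing, and among genes with 2 or more windows hosts were listed more often at equal numbers. Among genes with 4 windows in replicate 1, 74.4% of 129 hosts and 49.4% of 795 other genes were listed; with 2 windows, 57.6% of 92 hosts and 33.3% of 2096 others. With a single window, 19.7% of 76 hosts and 22.4% of 2607 others were listed, and in replicate 2 the shares were 23.4% of 77 and 22.4% of 2754. For these single-window genes the 95% Wilson intervals of hosts were 12.3% to 30.0% in replicate 1 and 15.3% to 34.0% in replicate 2. The intervals run over genes, which are not replicates, and the part of window number in listing was not tested.

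PLCG2 had the highest ratio of any host by a wide margin, 111, with 455 FPKM in the RIP and 4.10 FPKM in its input. It also held 1 of the strongest far windows, described above, and 1 nearer window in each list. The next ranks are given for hosts with far windows in both lists. RNF213 had 15.7 (22.5 FPKM in the RIP and 1.43 in the input), HERC2 13.5 (35.3 and 2.61) and AHNAK 13.4 (55.8 and 4.17). FAT1, a giant cadherin, had 12.8 (193 and 15.1), DYNC1H1, the cytoplasmic dynein heavy chain, 11.9 (111 and 9.34), TRIO, a guanine nucleotide exchange factor, 11.7, and MDN1 11.0. MACF1 had 7.30 and KMT2D 7.48, while DST and DNAL1 were not listed. Among the Wnt pathway hosts 11 of 13 were listed, with a median ratio of 4.74, and APC and CELSR3 were not.

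Translation was measured as ribosome footprints beside mRNA, in a relative signal per gene whose unit the headers do not name. YTHDF1 itself had footprints of 17.0 and 19.9 in knockdown cells and 61.4 in control cells, and mRNA of 8.62 and 7.81 in knockdown cells and 27.4 in control cells. All 4 knockdown values lay below the control, and even so YTHDF1 did not pass the threshold in limma, with an adjusted p of 0.552 for footprints and 1.00 for mRNA. Of 9 epithelial and colon markers, 6 were in the table, with control mRNA between 3.07 and 1590, and 2 of 4 markers of other cells were in it, at 1.15 and 1.35. No control value in the table is under 0.5 while knockdown values reach 0, so it leaves out genes low in the control. Of the 1298 hosts, 786 were in it with a mean log2(value + 1) of at least 1, so the counts below do not speak for all hosts. With 1 control library per assay, p-values rest on the spread between the knockdown libraries alone, and the labels do not say whether these were separate cultures.

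Hosts were lower than all tested genes in both assays. Their median footprint signal was 14.4 and 12.1 in knockdown cells and 15.6 in control cells, beside 23.6, 21.5 and 27.8 over all 6782 tested genes. Their median mRNA signal was 7.92 and 8.47 in knockdown cells and 8.11 in control cells, beside 11.6, 12.3 and 12.0 over all. Translational efficiency, here footprint over mRNA as log2(value + 1) of each subtracted, had a host median of 0.70 and 0.43 in knockdown cells and 0.93 in control cells, beside 0.90, 0.71 and 1.08 over all tested genes. Host medians lay below those of all genes in every library for all 3 measures. Genes without an m6A window had a lower median mRNA signal than hosts, at 7.69 and 7.79 in knockdown cells and 7.38 in control cells.

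No host changed past the threshold after knockdown. In a limma-trend fit over 6782 genes with Benjamini-Hochberg adjustment, 0 of 786 hosts were called in footprints at an adjusted p under 0.05, where the background was 0.0295% of tested genes. In mRNA 0 hosts were called against a background of 0%, and in translational efficiency 0 against a background of 0%. At an unadjusted p under 0.05, 73 hosts differed in footprints (9.29%, 15 higher and 58 lower), where 8.85% of all tested genes did. In mRNA 2 hosts did, where 0.472% of all did, and in translational efficiency 27 did (3.44%, 4 higher and 23 lower), where 2.73% of all did. These shares are close to the background and are no result about hosts. Without footprint knockdown 2, limma called 7 hosts in footprints (ARHGAP21, CHD8, FANCD2, INTU, KDM6B, MAPK8IP3 and PRDM2), beside 80 of all 6782 tested genes (1.18%), so the count rests on a single library and is no result about hosts. With a replicate block it called 4 hosts in footprints, where 0.442% of all tested genes were called. Without mRNA knockdown 1 it called 1 host in mRNA and 1 in translational efficiency, where 0.0147% of all tested genes were called in each.

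The median log2 change of hosts followed that of all genes. For footprints it was -0.31 in hosts and -0.28 in all tested genes, for mRNA 0.03 and -0.01, and for translational efficiency -0.29 and -0.27. Footprints were lower than control in both knockdown libraries for 407 hosts and higher in both for 155. Over all tested genes these numbers were 3469 and 1184. Footprint values were not rescaled, and their sums were 938928 and 1041090 in knockdown 1 and 2 and 1227320 in control cells. The median footprint log2 change over all tested genes was 0.009 with median centring and -0.013 with quantile normalization. The size of the general decrease therefore depended on the scaling.

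**Figure D5:**
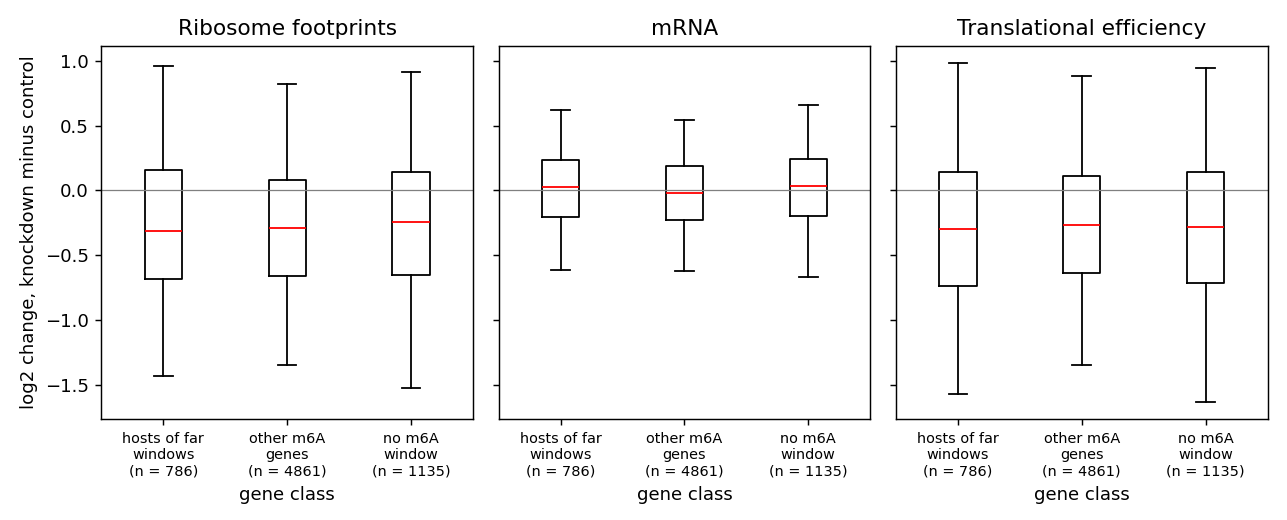
Log2 change, knockdown minus control on the log2(value + 1) scale, of footprints, mRNA and translational efficiency for hosts of far windows (786 genes), other m6A genes (4861) and genes without an m6A window (1135); red lines are medians, boxes quartiles and whiskers the 5th and 95th percentiles. Host medians of -0.31, 0.03 and -0.29 lie beside those of the other classes.

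Single hosts had large differences with wide errors. FANCD2, a DNA crosslink repair protein, had footprints of 27.1 and 251 in knockdown cells and 1034 in control cells, with mRNA of 8.10 and 11.5 in knockdown cells and 8.62 in control cells. Its footprint log2 change was -3.62 ± 1.14 (SE), adjusted p = 0.552 in limma. The knockdown libraries were both below the control but far apart from each other. CHD8, a chromatin remodeller that restrains beta-catenin, had 19.6 and 1228 in knockdown cells and 1275 in control cells, so that knockdown 2 lay near the control. Its mRNA was 12.4 and 10.9 in knockdown cells and 10.2 in control cells. Control footprints of FANCD2 and CHD8 thus lay far above their mRNA, beside a host median translational efficiency of 0.93 log2 in control cells. The origin of these footprint values was not tested. KDM6B, a histone H3 lysine demethylase, had 3.32 and 4.99 in knockdown cells and 37.8 in control cells, a log2 change of -2.93 ± 0.48 (SE) and the smallest adjusted p of any host in limma, 0.363. For hosts with far windows in both lists, the others with the largest lower footprints were CHD5, HDAC4 and SOCS7. Their log2 changes were -2.63, -2.56 and -2.36, each with an adjusted p of 0.547 or more in limma.

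PRDM2, a zinc finger methyltransferase family member, came first among hosts with far windows in both lists and higher footprints in both knockdown libraries. It had 18.8 and 4.65 in knockdown cells and 0.634 in control cells, a log2 change of 2.69 ± 0.79 (SE), adjusted p = 0.552 in limma. BCL9 had 15.8 and 6.98 in knockdown cells and 2.71 in control cells, a log2 change of 1.64 ± 0.61 (SE), adjusted p = 0.552 in limma. KIAA1522, PHLPP1 (an AKT phosphatase), GPR161 and PLXNA1 had log2 changes between 1.49 and 1.69. All 6 started from control footprints under 3, near the lower limit of the table, and their mRNA log2 changes lay between -0.37 and 0.19.

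For translational efficiency the named hosts were largely the same, with PLEKHG2 (2.03) and C2CD2 (1.47) joining those with higher values and BOD1L1 (-2.56) and GNPTAB (-2.45) joining those with lower values. Each had an adjusted p of 0.996 in limma. For BOD1L1 the larger difference was in mRNA, with 26.3 and 2.78 in knockdown cells and 1.58 in control cells, while its footprints were 4.27 and 3.84 in knockdown cells and 6.58 in control cells. GNPTAB, a subunit of the enzyme that tags lysosomal proteins, had footprints of 7.99 and 10.2 in knockdown cells and 40.3 in control cells.

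None of 3 hosts with strong or many far windows passed the threshold. PLCG2 had footprints of 17.0 and 16.9 in knockdown cells and 20.7 in control cells, and mRNA of 5.34 and 6.64 in knockdown cells and 5.84 in control cells. DNAL1 had footprints of 23.2 and 40.8 in knockdown cells and 22.6 in control cells. MACF1 had footprints of 10.8 and 22.1 in knockdown cells and 7.84 in control cells, a log2 change of 0.90 ± 0.53 (SE), adjusted p = 0.604 in limma. For DNAL1 and MACF1 the knockdown libraries were both above the control and differed from each other.

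Of the 13 Wnt pathway hosts, 6 were tested and 0 were called, with a median footprint log2 change of -0.24 beside -0.28 over all tested genes. LRP6 had footprints of 10.4 and 10.3 in knockdown cells and 17.6 in control cells, a log2 change of -0.71 ± 0.46 (SE), adjusted p = 0.629 in limma, and its mRNA was 3.95 and 3.55 in knockdown cells and 3.53 in control cells. NFAT5 had 19.8 and 11.4 in knockdown cells and 39.4 in control cells, BCL9L 21.7 and 25.7 in knockdown cells and 41.7 in control cells, and MED13 28.0 and 22.5 in knockdown cells and 21.1 in control cells. MACF1, BCL9 and MED13 lay above the control in both knockdown libraries and LRP6, NFAT5 and BCL9L below it. In the other lists 0 hosts were called as well, and the median footprint log2 change of tested hosts lay between -0.45 for 14 DNA damage genes and -0.09 for 17 cytoskeletal linkers.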

How the data were processed

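Per the submitters' processing notes STAR and GRCh38 were used. Versions and the peak caller were not given in the sources used here, nor was the unit of the window signals. The m6A lists, called per replicate by the authors, hold deposited signal values for IP and input, and a deposited ratio of both (POI). The RIP list holds FPKM values and their ratio as deposited by the authors. The footprint and mRNA table holds deposited signal values, with sums over the listed genes of 938928 to 1227320 for footprints and 339763 to 345044 for mRNA, so read depth is unknown.

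Windows starting at base 4000 or beyond were matched between lists by gene and at least 1 shared base. Genes were matched by symbol after leaving out spreadsheet-damaged names (12 rows of the expression table and 8 of the RIP list). Footprints, mRNA and translational efficiency were tested with limma 3.58.1 (R 4.3.3), limma-trend on log2(value + 1), 1 mean per assay and condition, 2 residual degrees of freedom, 2-sided, Benjamini-Hochberg at 0.05 over 6782 genes after 132 were filtered. A log2(value + 1) change understates that of low genes. The fit was run on simulated data with large changes and far less noise than these libraries show. That run checks the code and says nothing about power in these data. Alternatives were other position, POI and overlap limits, another pseudocount, no filter, other normalizations, each assay alone, a replicate block and each library left out. Intervals cover counting error only.

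Named genes were the 10 highest lower-of-both POI windows, the 8 genes with most and the 8 with farthest windows, and list members. Also named were the 8 highest RIP ratios and the 6 largest differences each way in footprints and translational efficiency. The differences required knockdown 1 and 2 both above or both below control. Rankings by number of windows, RIP ratio and difference took only hosts with far windows in both lists. The members, lists and rules were chosen with earlier results of these data known. Values of some single genes are not reported here.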

Additional observations from a re-analysis of the deposited data

How the results depend on the processing

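Far windows were 10.2% of all windows on average over both lists. They were 18.7% from base 3000, 5.77% from base 5000, 10.4% with a POI of 5 or more and 10.5% placed by window centre, and 10.1 to 10.2% with either list alone. Support was 66.7%, and 68.8%, 65.8% and 63.4% under the first 3 of these. The 66.7% is the mean of 67.2% and 66.2%, each list counted against the other, and support cannot be counted with a list alone. The POI limit was set on both lists before matching, so a window whose partner lay under 5 counted as unmatched. Requiring a shared stretch of at least 1 of every 2 bases of the shorter window changed support by less than the difference between lists. Median POI was 5.86, and 8.41 with a POI of 5 or more, where the limit itself raises it. Median spacing was 500 bases, and 600 with a POI of 5 or more. RIP listing of hosts was 71.1%, and 78.3% for hosts of supported far windows and 60.3% at a RIP ratio of 2 or more, where 19.3% of other m6A genes were listed.

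In limma 0 hosts were called for footprints. With replicate numbers as a block, 4 were called (FANCD2, KDM6B, SVIL and VCL), beside 30 of all 6782 genes (0.442%). The labels do not say that numbers pair samples, and the difference between knockdown libraries correlated at 0.37 between assays across 6782 genes, with only 2 numbers to pair. Leaving out 1 library at a time called 0 to 7 in footprints, the 7 (ARHGAP21, CHD8, FANCD2, INTU, KDM6B, MAPK8IP3 and PRDM2) without footprint knockdown 2, where 80 of all genes were called (1.18%), and 0 to 1 in mRNA and in translational efficiency, the 1 without mRNA knockdown 1. The lone sample left is then assumed to vary like the others. The host median relative to all genes was -0.030 log2 for footprints, -0.039 with a pseudocount of 0.5, -0.019 with quantile normalization and -0.030 to -0.0070 leaving out 1 library. For mRNA it was 0.035, and -0.0053 to 0.049 leaving out 1 library, the lowest without mRNA knockdown 2; for translational efficiency -0.023, and -0.062 to 0.020, the highest without mRNA knockdown 2, so both signs turned. The causes were not tested. Of 240 values that hosts named for their difference took under these settings, 6 passed the threshold newly. Those hosts were chosen for both knockdown libraries lying on the same side of the control, so leaving 1 out could not turn their direction in footprints. For translational efficiency the choice used same-numbered footprint and mRNA libraries, so leaving 1 out could have turned the direction, but none turned. Ranking by POI without an input floor, or with one chosen after the data were seen, changed the leading gene. The position of windows against the coding length was not run. Read depth is unknown, so no detection limit in reads could be given.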
